A study of Mus musculus with 24 samples.

Results

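Collagens are trimers of alpha chains, and the mouse genome encodes each chain by a gene of its own. The collagen chain genes were followed here in inguinal fat of mice with and without a deletion of Bmal1 aimed at adipocytes, at 4 circadian times. Whether the deletion was confined to adipocytes was not tested. Members were all genes whose platform symbol had the form Col, a number, the letter a and a number, read from probe sets with exactly 1 symbol, and where a gene had several such probe sets from the brightest on average. This gave 44 genes of 19938 tested, which were 11 fibrillar chains, 6 basement membrane chains (Col4a1 to Col4a6) and 27 others. The others comprised 9 fibril-associated chains with interrupted triple helices (FACIT), 6 collagen VI chains of beaded filaments, 4 transmembrane chains, 3 short network chains, 2 multiplexins, the anchoring fibril chain Col7a1 and, unclassified, Col26a1 and Col28a1. A single probe set represented 42 members, and Col6a5 and Col6a6 had 2 each.

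Fibrillar collagens such as types I, III and V form the tensile fibres around fat cells, and collagen IV forms the sheet of the basement membrane that encloses each adipocyte and each capillary. Collagen VI makes beaded filaments between the membrane and the fibres and is abundant in adipose tissue. In fat pads fibroblast-like stromal cells are the known main source of fibrillar chains, while adipocytes and vascular cells also make basement membrane chains.

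The series measured RNA of inguinal fat, a subcutaneous depot, on 24 Affymetrix mouse gene arrays, each labelled as 1 mouse, with 3 biological replicates in each of 8 groups. Knockout mice (Ad-Bmal1-/-) were aP2-Cre+/- Bmal1fx/fx, so that Cre recombinase was driven by the aP2 promoter, and controls were Bmal1fx/fx without Cre, so an effect of Cre alone is not separated from that of the deletion. All mice were of C57BL/6J background after at least 6 generations of crossing, ate chow, were in constant darkness from 36 h before the first collection, and fasted for 24 h before death at CT0 (start of the subjective day), CT6, CT12 or CT18. The labels give neither the animals' age nor which exons were deleted. BMAL1 pairs with CLOCK to form the activator of the circadian clock.

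Expression is given as the deposited log2 values, so that a difference of 1 is a doubling. The median over all genes lay between 6.46 and 6.56 on the 24 arrays, and arrays have no read depth, so that their number limits the precision. Adipocyte markers were high, with a mean log2 level of 12.00 for the hormone gene Adipoq and 11.82 for the lipid droplet gene Cidec. In a bulk tissue fewer cells of a type and less RNA per cell cannot be told apart. The targeted gene Bmal1 (symbol Arntl) read 7.97 on all control arrays and 7.30 to 7.51 in knockouts at CT0, and 6.54 to 6.82 in controls and 6.88 to 7.08 in knockouts at CT6. It ranged from 6.04 to 6.75 and 6.46 to 6.89 at CT12, and from 7.04 to 7.55 and 7.07 to 7.43 at CT18, so knockouts were lower than controls without overlap at CT0 only and higher at CT6. Whether its probes lie in the deleted part is not known, so these levels do not check the labels. Some arrays stood apart from their labels: the replicate 1 arrays of both genotypes at CT12 and the replicate 3 arrays of both genotypes at CT18 had been singled out in earlier results of these data. Of the 4 genes called for the mean genotype difference (Ces1d, Ces1f, Fmo1 and Nr1d1), knockout replicate 1 at CT12 lay nearer to the control arrays of its time for 3, and knockout replicate 3 at CT18 for 3. Control replicate 1 at CT12 lay nearer to the knockout arrays for 4, and control replicate 3 at CT18 for 1 only, which is no more than for other arrays, while each of the other 20 arrays lay nearer to the other genotype for at most 1. The labels were kept, and results that rest on these 4 arrays are given with and without them. Because the 4 were chosen by genes that differ by genotype, p-values without them overstate the evidence for a genotype difference.

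Most collagen genes had a signal above that of the median gene. The mean level over all arrays was above the median gene level of 6.50 for 31 of 44 members, and 0 lay below the lower quartile of 5.42. The brightest probe set among the fibrillar chains was that of Col1a2 (8.15), among the basement membrane chains Col4a1 (8.26) and among the collagen VI chains Col6a1 (8.49). In the smaller groups it was Col14a1 among the FACIT chains (8.25), Col15a1 among the multiplexins (7.57), Col7a1 for the anchoring fibril (6.93), Col23a1 among the transmembrane chains (6.75), Col8a1 among the network chains (6.68) and Col26a1 among the unclassified (7.20). Signals of different probe sets depend on their probes, so these values rank probe sets and not the amounts of the chains. Of the chains known from cartilage, the probe sets of Col2a1 (7.08), Col11a2 (7.05), Col9a2 (7.57), Col9a3 (7.76) and Col10a1 (6.61) were above the median gene level, and those of Col9a1 (5.93) and Col11a1 (6.36) below it. Of the 4 measured cartilage and bone markers Acan, Comp and Matn3 lay below it and Sox9 (6.72) above.

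Averaged over the 4 times, no collagen gene passed for genotype. Across all arrays 0 of 44 members had an adjusted p under 0.05 (limma, Benjamini-Hochberg over all genes), against 0.0201% of all genes. At an unadjusted p under 0.05 there were 2 of 44 (4.55%), against 6.07% of all genes. These were Col5a3, higher in knockout fat (as were 2.5% of all genes at that threshold), and Col28a1, lower (3.58%). The differences leaned to higher values in knockout fat: 34 of 44 members were positive (77.3%) against 50.6% of all genes, with a median log2 difference of 0.03 against 8e-04. All 11 fibrillar members (median 0.04), all 6 basement membrane members (median 0.04) and 17 of 27 others (median 0.02) were positive. With 1 array left out in turn the fibrillar median ranged from 0.02 (without knockout replicate 3 at CT12) to 0.06 (without control replicate 2 at CT0). The basement membrane median ranged from 0.01 (without knockout replicate 1 at CT6) to 0.06 (without knockout replicate 3 at CT0). That of the others ranged from -0.01 (without knockout replicate 1 at CT6) to 0.03 (without knockout replicate 2 at CT18).

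**Figure D1:**
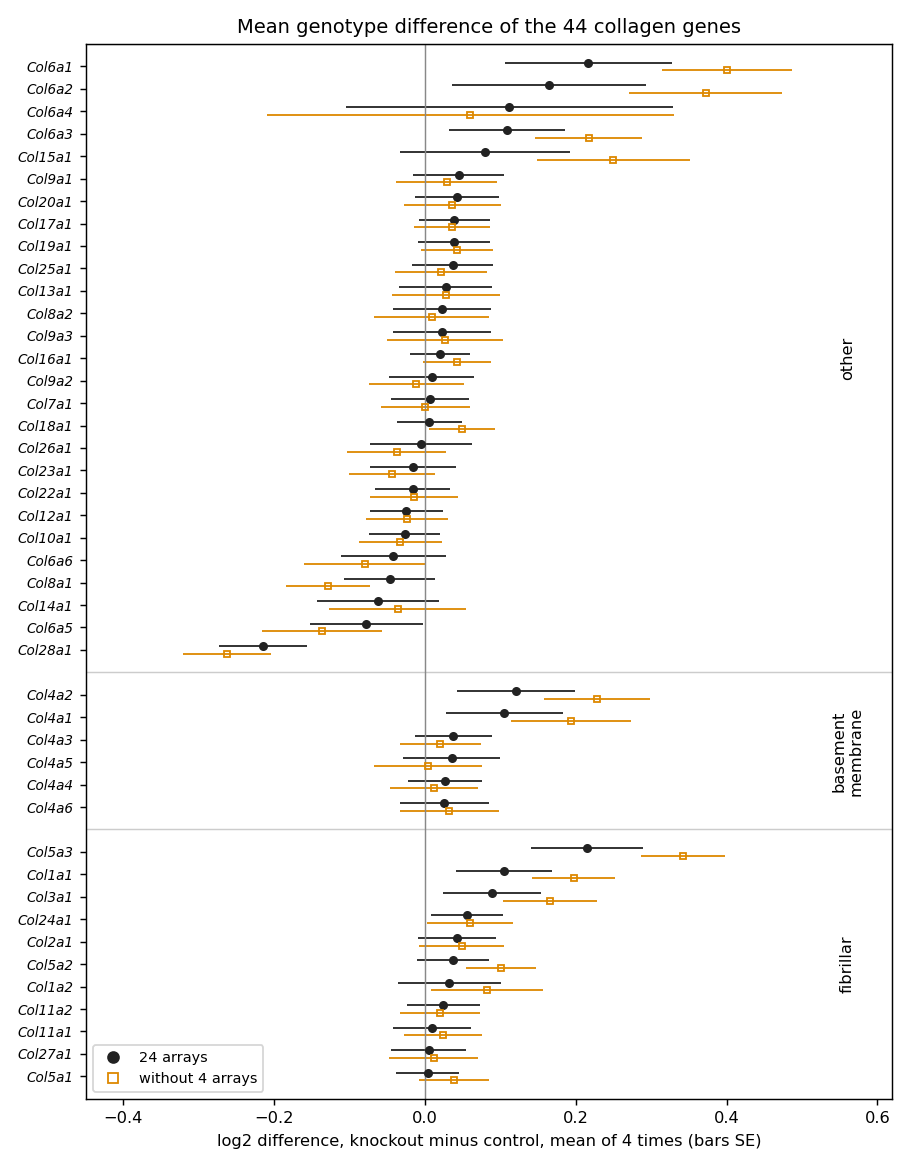
Log2 difference, knockout minus control, averaged over the 4 times (horizontal axis), for each of the 44 collagen genes by class (vertical axis), with the SE of the limma fit. Black circles use 24 arrays and orange squares leave out 4; with 24 arrays Col28a1 is lowest at -0.21 and Col6a1 highest at 0.22, and without the 4 arrays Col5a3, Col6a1 and Col6a2 move to 0.34, 0.40 and 0.37.

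Among the fibrillar chains Col5a3, which encodes the alpha3 chain of collagen V, had the largest genotype difference. At CT0 it read 7.09, 7.13 and 7.05 in controls and 7.56, 7.20 and 7.37 in knockouts, and at CT6 it read 6.99, 6.88 and 6.78 in controls and 7.22, 7.26 and 7.23 in knockouts. All knockout arrays lay above all control arrays at these times. At CT12 controls read 7.38, 7.03 and 6.85 and knockouts 6.97, 7.07 and 7.35, and at CT18 controls read 7.10, 6.85 and 7.53 and knockouts 7.47, 7.40 and 7.15 (replicates 1, 2 and 3). The genotypes overlapped at both later times, where the highest control was the singled-out array. The mean difference was 0.22 ± 0.07 (SE; adjusted p = 0.626), with 9 of 12 knockout arrays above the control mean of their time. Without the 4 arrays it was 0.34 ± 0.06 (adjusted p = 0.00509), and 10 of 10 knockout arrays lay above.

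The chains of the main fibres differed less. Col1a1, the alpha1 chain of collagen I, had a mean difference of 0.10 ± 0.06 (SE; adjusted p = 0.903), and without the 4 arrays 0.20 ± 0.06 (adjusted p = 0.149). It read 7.80, 7.94 and 7.70 in controls and 8.13, 8.10 and 8.04 in knockouts at CT0, which did not overlap. For Col3a1, the chain of collagen III, the values were 0.09 ± 0.06 with all arrays and 0.17 ± 0.06 (adjusted p = 0.381) without the 4. Col1a2, the alpha2 chain of collagen I, was at 0.03 ± 0.07. The smallest fibrillar differences were those of Col5a1 (0.00 ± 0.04), the collagen V chain that nucleates fibrils, and Col27a1 (0.00 ± 0.05).

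In the basement membrane class the differences of the 2 ubiquitous chains were the largest. Col4a2 had 0.12 ± 0.08 (SE; adjusted p = 0.911) and Col4a1 0.11 ± 0.08 (adjusted p = 0.941), and for each 9 of 12 knockout arrays lay above the control mean of their time. Without the 4 arrays the values were 0.23 ± 0.07 (adjusted p = 0.214) and 0.19 ± 0.08 (adjusted p = 0.443). Col4a4 and Col4a6, chains of tissue-restricted collagen IV networks, were each at 0.03. Basement membrane partners of collagen IV, such as laminins and nidogens, had 0 of 10 members past the threshold, a median of -0.004 and 7 of 10 negative. Endothelial markers, from cells that also make collagen IV, were negative in 8 of 8 genes, against 49.4% of all genes. Their median was -0.17, 6 were lower at an unadjusted p under 0.05, against 3.58% of all genes, and 0 passed the threshold. The summed level of the endothelial list ranged from 11.36 to 11.73 in control and 11.04 to 11.68 in knockout fat at CT0, from 11.77 to 11.80 and 11.41 to 11.81 at CT6, from 11.62 to 11.67 and 11.19 to 11.57 at CT12, and from 11.59 to 11.76 and 11.32 to 11.62 at CT18. Its part in the collagen IV values was not tested.

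Among the other chains those of collagen VI had the largest positive differences. Col6a1 read 8.36, 8.62 and 8.37 in controls and 9.10, 8.87 and 8.87 in knockouts at CT0, and 8.11, 8.27 and 8.43 in controls and 8.47, 8.74 and 8.49 in knockouts at CT6. All knockout arrays lay above all controls at both times. At CT12 controls read 8.95, 8.13 and 7.93 and knockouts 7.97, 7.96 and 8.76, and at CT18 controls read 8.39, 8.24 and 8.80 and knockouts 8.77, 8.81 and 8.38. The singled-out controls were the highest control arrays at both times, and the groups overlapped. The mean difference of Col6a1 was 0.22 ± 0.11 (SE; adjusted p = 0.850) with all arrays and 0.40 ± 0.09 (adjusted p = 0.0392) without the 4, where 9 of 10 knockout arrays lay above the control mean.

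Col6a2 encodes the alpha2 chain of the same trimer. At CT0 it read 7.85, 8.0 and 7.98 in controls and 8.68, 8.12 and 8.33 in knockouts, and at CT12 it read 8.62, 7.68 and 7.44 in controls and 7.55, 7.36 and 8.23 in knockouts. The groups did not overlap at CT0 and did at CT12. Its mean difference was 0.16 ± 0.13 (SE; adjusted p = 0.953), and without the 4 arrays 0.37 ± 0.10 (adjusted p = 0.138). Col6a3, the large chain of the trimer, was at 0.11 ± 0.08, and without the 4 arrays at 0.22 ± 0.07 (adjusted p = 0.262). Col6a5, a chain of restricted expression, was at -0.08 ± 0.07.

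Col28a1 went the other way. It encodes the chain of collagen XXVIII, which is known mainly from peripheral nerve. It read 6.52, 6.55 and 6.58 in controls and 6.20, 6.41 and 6.30 in knockouts at CT0, and 6.71, 6.52 and 6.56 in controls and 6.45, 6.13 and 6.34 in knockouts at CT12. All knockouts lay below all controls at these times. At CT6 controls read 6.30, 6.40 and 6.12 and knockouts 6.24, 6.09 and 6.41, and at CT18 controls read 7.0, 6.70 and 6.63 and knockouts 6.48, 6.30 and 6.69. The groups overlapped at CT6 and CT18. The mean difference was -0.21 ± 0.06 (SE; adjusted p = 0.331), with 11 of 12 knockout arrays below the control mean of their time. Without the 4 arrays it was -0.26 ± 0.06 (adjusted p = 0.0478). Its mean level of 6.44 was just under the median gene level. Of the listed Schwann cell markers Sox10 and S100b were measured, with mean genotype differences of 0.01 ± 0.05 and -0.05 ± 0.10.

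**Figure D2:**
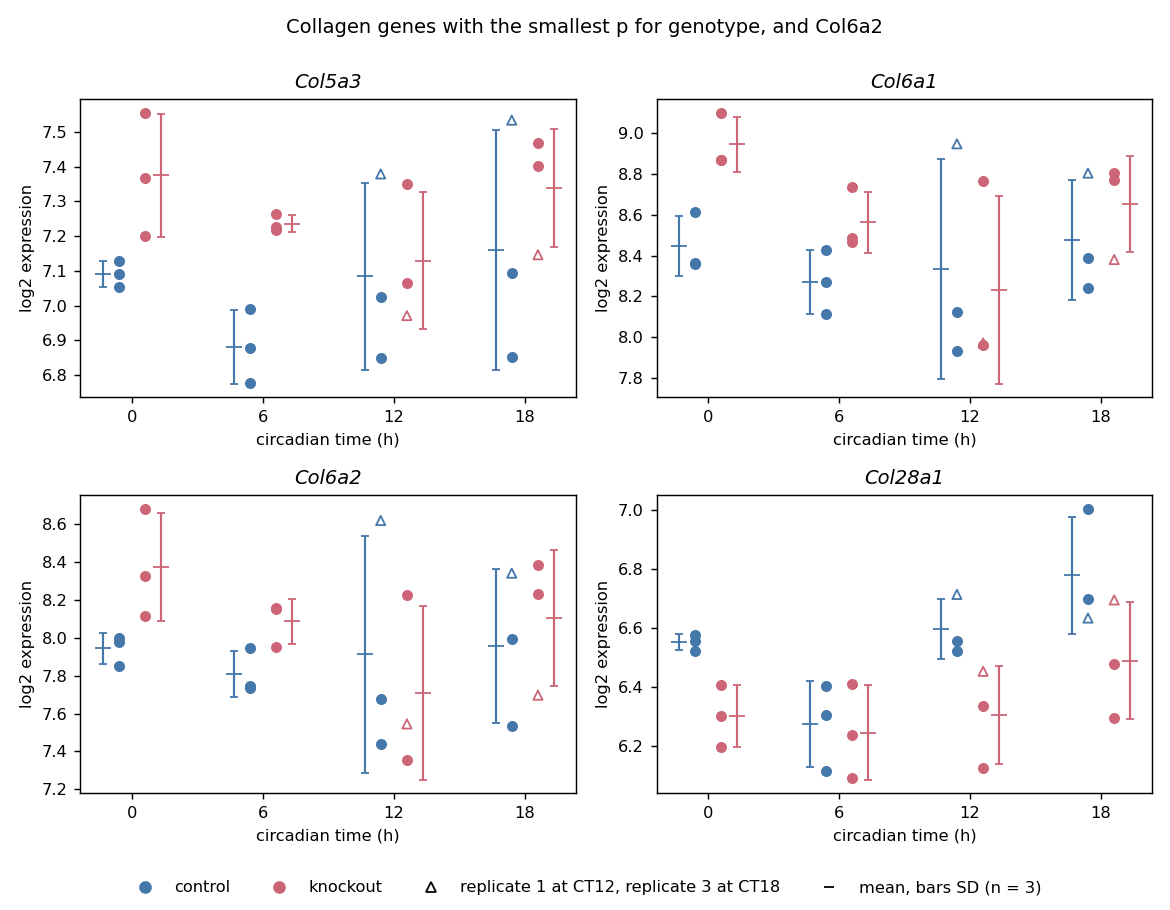
Log2 expression (vertical axes) of Col5a3, Col6a1, Col6a2 and Col28a1 on each array against circadian time (horizontal axes), controls in blue and knockouts in red, with group means and SD (n = 3); open triangles are the 4 singled-out arrays. At CT0 all knockout points lie above all control points for the first 3 genes and below for Col28a1, and at CT12 the highest control point of Col6a1 is the triangle at 8.95.

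Leaving out the 4 arrays raised the calls from 0 to 3 of 44 (6.82%), Col5a3 and Col6a1 higher and Col28a1 lower in knockout fat, while the share of all genes called became 0.697%. The unadjusted count became 12 of 44 (27.3%) against 8.88% of all genes, with 33 of 44 members positive (75%) against 49.4%. Because the 4 arrays were chosen by genes that differ by genotype, these counts and shares overstate the evidence for a genotype difference. Control replicate 3 at CT18 lay nearer to the knockouts for 1 of 4 such genes only. It was the highest control array of its time for Col5a3 and Col6a1.

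At single times no collagen gene passed for genotype (limma, adjusted p under 0.05, 0 of 44 at each time). At CT0 the share of all genes called was 0% and 4 of 44 members had an unadjusted p under 0.05 (9.09%, against 5.55% of all genes), 3 higher in knockout fat (2.77% of all genes) and 1 lower (2.78%). They were Col6a1 at 0.50 ± 0.22 (SE), Col1a1 at 0.28 ± 0.13, Col6a3 at 0.33 ± 0.15 and Col28a1 at -0.25 ± 0.12, with adjusted p between 0.884 and 0.894. In this comparison 4 members (Col1a1, Col5a3, Col6a1 and Col6a2) had all knockout arrays above all controls, which held for 6.28% of all genes, and 1 (Col28a1) had all below, as had 4.47% of all genes. In sign, 32 of 44 members were positive (72.7%, against 55.4% of all genes). The class medians were 0.15 for the fibrillar, 0.09 for the basement membrane and 0.03 for the other chains. Without knockout replicate 2 at CT0 they were 0.06, -0.01 and -0.05.

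At CT6 the share of all genes called was 0% and only Col5a3 (0.35 ± 0.15, adjusted p = 1) had an unadjusted p under 0.05 (1 of 44, 2.27%, against 3.77% of all genes in either direction and 1.71% higher). Next were Col18a1, a multiplexin of the basement membrane zone, at 0.16 ± 0.09, and Col5a2, the alpha2 chain of collagen V, at 0.16 ± 0.09. All knockout arrays lay above all controls for 7 members, namely Col1a1, Col4a1, Col5a2, Col5a3, Col6a1, Col6a2 and Col18a1, against 5.01% of all genes, and below for 0 members, against 6.27%. The differences of 36 of 44 members were positive (81.8%, against 50.8% of all genes), with medians of 0.08, 0.07 and 0.06 for fibrillar, basement membrane and other chains. Without knockout replicate 1 at CT6 the medians were -0.01, -0.03 and -0.02.

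At CT12 the differences of 39 of 44 members were negative (88.6%, against 56.4% of all genes), with medians of -0.09 for fibrillar, -0.05 for basement membrane and -0.07 for other chains. The share of all genes called was 0%, and 2 of 44 members (4.55%, against 2.49% of all genes, 1.66% lower) had an unadjusted p under 0.05, Col28a1 at -0.29 ± 0.12 (SE) and Col8a1, a short-chain collagen of vessel walls, at -0.29 ± 0.12. Next was Col14a1, a FACIT chain on fibril surfaces, at -0.33 ± 0.16. All knockouts lay below all controls for 4 members (Col16a1, Col18a1, Col27a1 and Col28a1), against 5.12% of all genes, and above for 0, against 2.97%. The signs depended on the 4 arrays: without them 35 of 44 members were negative (against 57.3% of all genes), of which 31 were negative with all arrays too, while 8 negative members became positive and 4 positive ones negative. The 8 were Col1a1, Col3a1, Col4a1, Col4a2, Col6a1, Col6a2, Col6a3 and Col15a1. Thus the CT12 difference of Col6a1 was -0.10 with all arrays and 0.33 ± 0.19 (SE) without the 4, and that of Col6a2 -0.20 and 0.23 ± 0.22. That of Col4a1 was -0.03 and 0.20 ± 0.17. With 1 array left out the basement membrane median ranged from -0.11 (without knockout replicate 3 at CT12) to -0.01 (without knockout replicate 2), and it was -0.09 without control replicate 1. The fibrillar median was -0.06 without control replicate 2, and that of the others -0.12 without control replicate 1.

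At CT18 34 of 44 members were positive (77.3%, against 49.8% of all genes). The share of all genes called was 0.00502%, and 2 of 44 members (4.55%, against 6.05% of all genes, 2.98% lower and 3.07% higher) had an unadjusted p under 0.05. These were Col28a1 at -0.29 ± 0.12 (SE; adjusted p = 0.813) and Col17a1, a transmembrane collagen of epithelial attachment, at 0.20 ± 0.09 (adjusted p = 0.820). Next was Col4a3, a collagen IV chain of restricted expression, at 0.18 ± 0.10. The genotypes overlapped for all 44 members, whereas 4.33% of all genes had all knockouts above and 4.25% below. The basement membrane median was 0.11 with all arrays and 0.17 without the 4, and with 1 array left out from 0.06 (without control replicate 2 at CT18) to 0.18 (without control replicate 3). The fibrillar median was 0.04 with all arrays and 0.15 without the 4, and with 1 left out from 0.01 (without control replicate 2) to 0.13 (without knockout replicate 3). The median of the other chains was 0.04, and from -0.03 (without knockout replicate 1) to 0.05 (without knockout replicate 2).

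The difference in sign between the times did not pass its test. Of 44 members 0 passed for the genotype by time interaction (limma F test), as did 0% of all genes, and 0 of 44 had an unadjusted p under 0.05, against 2.98% of all genes. The smallest p-values were 0.0636 for Col5a2, 0.0908 for Col18a1 and 0.142 for Col1a2, each with adjusted p = 1. Col18a1 read 6.65, 6.66 and 6.66 in controls and 6.95, 6.69 and 6.8 in knockouts at CT6. At CT12 it read 6.83, 6.81 and 6.81 in controls and 6.62, 6.59 and 6.75 in knockouts. Thus all knockouts lay above all controls at CT6, as for 5.01% of all genes, and below them at CT12, as for 5.12%. How many of all genes did both was not counted. The CT12 arrays include the singled-out replicate 1 of each genotype, and Col18a1 is named for its small interaction p.

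With both genotypes together 9 of 11 fibrillar chains and Col6a1, Col6a2 and Col6a3 had lower mean values at CT12 than at CT0, and no member passed. The share of all genes called for CT12 minus CT0 was 0.532%, and that of the members 0 of 44. At an unadjusted p under 0.05 there were 8 of 44 members (18.2%) against 10.6% of all genes, 7 lower (against 3.8%) and 1 higher (against 6.76%), and 5 of these were among the 11 fibrillar chains (45.5%), all lower. In sign, 33 of 44 members were negative (75%), against 44.2% of all genes. The fibrillar median was -0.13, the basement membrane median -0.05 and that of the others -0.02, against 0.01 over all genes. The 2 genotypes entered unequally. Col6a1 differed by -0.71 between CT0 and CT12 in knockouts and by -0.11 in controls, Col1a2 by -0.50 and -0.03, Col1a1 by -0.48 and -0.10, and Col5a2 by -0.46 and -0.13. This inequality was tested only by the interaction over the 4 times given above, which no member passed.

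Col5a2 came closest to the threshold. Its 6 arrays at CT0 had a lowest value of 6.86, a median of 7.05 and a highest of 7.15, and those at CT12 had 6.54, 6.75 and 6.99. The ranges overlapped, and the highest CT12 array was the singled-out control. The difference was -0.29 ± 0.07 (SE; adjusted p = 0.0535). It passed after quantile normalization (adjusted p = 0.0422), with dim genes left out (adjusted p = 0.0424) and with array weights (adjusted p = 0.00789). With each array left out in turn it passed in only 3 of 24 fits, with adjusted p from 0.0205 to 0.171. Without the 4 arrays the difference was -0.30 ± 0.07 (adjusted p = 0.0633).

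Col3a1 had a lowest value of 7.96, a median of 8.33 and a highest of 8.37 at CT0, and 7.73, 7.84 and 8.10 at CT12. Its difference was -0.36 ± 0.09 (SE; adjusted p = 0.0914). Col1a1 had 7.70, 7.99 and 8.13 at CT0 and 7.41, 7.61 and 7.95 at CT12, with a difference of -0.29 ± 0.09 (adjusted p = 0.177). In both genes the ranges overlapped while the median of the later time lay below the lowest array of the earlier one. Col1a2 was at -0.26 ± 0.10 (adjusted p = 0.294) and Col5a1 at -0.13 ± 0.06 (adjusted p = 0.415).

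Of the collagen VI chains Col6a3 had a lowest value of 7.92, a median of 8.32 and a highest of 8.59 at CT0, and 7.66, 7.75 and 8.24 at CT12. The difference was -0.40 ± 0.11 (SE; adjusted p = 0.119), that of Col6a1 was -0.41 ± 0.16 (adjusted p = 0.314) and that of Col6a2 -0.35 ± 0.18 (adjusted p = 0.525). Col8a1 was the only member higher at CT12 with an unadjusted p under 0.05, at 0.19 ± 0.09 (adjusted p = 0.451). With array weights, which count knockout replicate 2 at CT0 least (weight 0.253), 6 of 44 members were called lower: Col5a2, Col3a1 (adjusted p = 0.0187), Col1a1 (0.024), Col4a1 (0.0266), Col6a3 (0.0266) and Col6a1 (0.0412), against 2.21% of all genes.

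**Figure D3:**
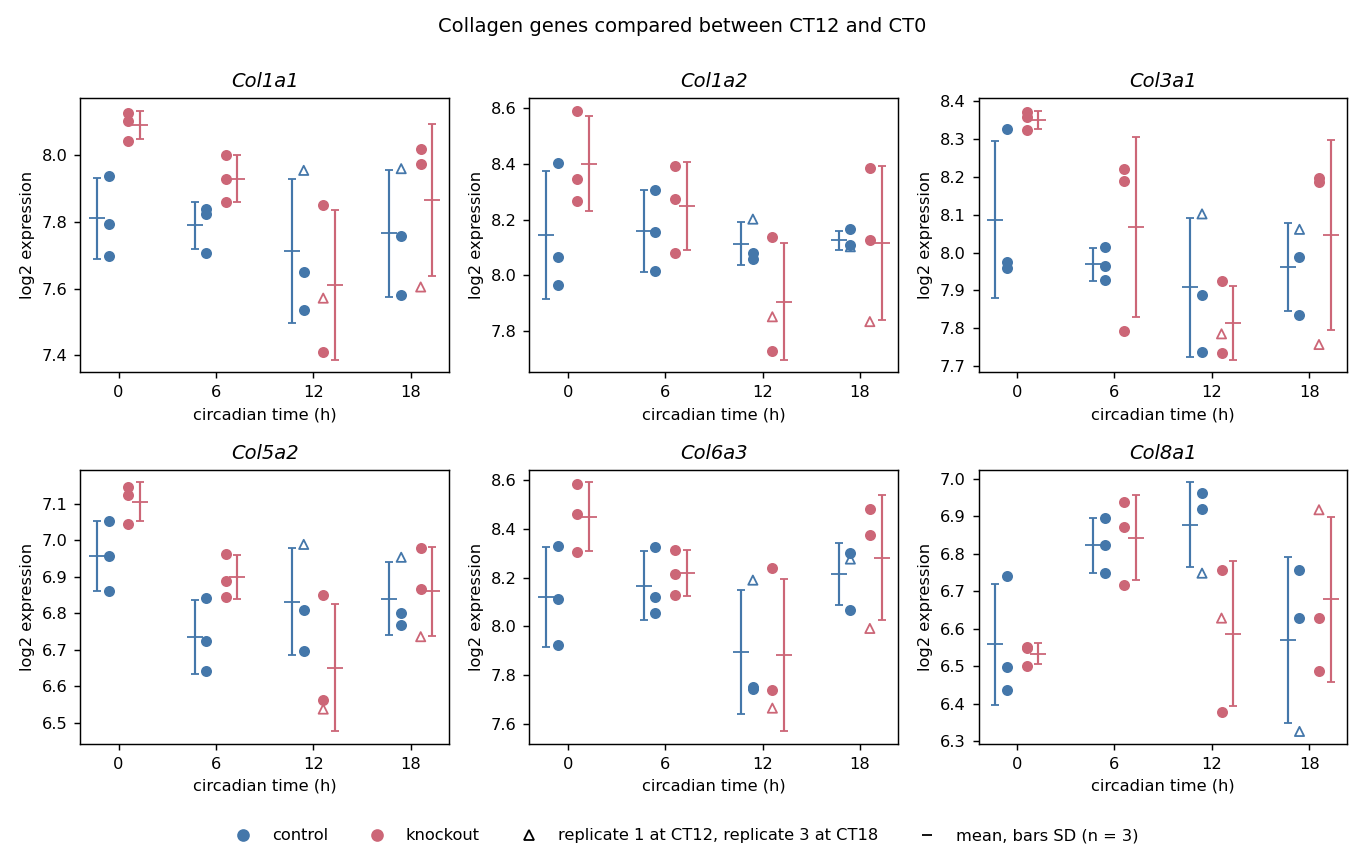
Log2 expression (vertical axes) of Col1a1, Col1a2, Col3a1, Col5a2, Col6a3 and Col8a1 on each array against circadian time (horizontal axes), controls in blue and knockouts in red, with group means and SD (n = 3); open triangles are the 4 singled-out arrays. For Col3a1 the arrays at CT0 lie between 7.96 and 8.37 and those at CT12 between 7.73 and 8.10.

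Smooth muscle and pericyte markers were negative in 7 of 8 genes in this contrast, against 44.2% of all genes, with a median of -0.53. Of them 5 were lower at an unadjusted p under 0.05, against 3.8% of all genes, and 0 passed the threshold. Their summed level ranged from 12.54 to 13.20 in knockout and 11.84 to 13.04 in control fat at CT0, and from 11.66 to 12.03 and 12.15 to 12.21 at CT12. The replicate 2 arrays at CT0 had the highest mean level of these markers, 9.24 in control and 9.23 in knockout fat. Fibroblast and progenitor markers were negative in 4 of 7 genes with a median of -0.06, with a summed level of 11.36 to 11.75 and 11.58 to 11.73 at CT0 and of 11.46 to 11.78 and 11.69 to 11.80 at CT12. Macrophage markers were positive in 6 of 6 genes, against 55.8% of all genes, with a median of 0.28, and 0 passed. The part of these cells in the collagen differences was not tested.

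Between CT6 and CT18, 1 member was called. Col28a1 was higher at CT18 by 0.37 ± 0.08 (SE; adjusted p = 0.036), 1 of 44 members against 0.702% of all genes. Its 6 arrays at CT6 had a lowest value of 6.09, a median of 6.27 and a highest of 6.41, and those at CT18 had 6.30, 6.66 and 7.0. The ranges overlapped by the lowest CT18 array, knockout replicate 2, at 6.30. The call was lost without the 4 arrays (0.36 ± 0.08, adjusted p = 0.118) and in 8 of 24 fits that left out 1 array. Those were the fits without replicates 1 and 2 of knockout and 1 and 3 of control at CT6, and without replicates 1 and 3 of either genotype at CT18, with differences of 0.32 to 0.41 and adjusted p of 0.0534 to 0.114. The Schwann cell markers S100b (0.39 ± 0.13, adjusted p = 0.162) and Sox10 (0.09 ± 0.08) were both positive. The summed level of these 2 markers was 7.31 to 7.73 in knockout and 7.26 to 7.38 in control fat at CT18, and 7.02 to 7.27 and 7.15 to 7.25 at CT6, and its part was not tested.

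No other chain passed in this contrast. At an unadjusted p under 0.05 there were 9 of 44 members (20.5%) against 16.4% of all genes, 7 higher (against 10.3%) and 2 lower (against 6.07%), and 36 of 44 were positive (81.8%) against 62.6%. Higher were, besides Col28a1, the cartilage chain Col9a2 at 0.20 ± 0.08 (SE), Col17a1 at 0.17 ± 0.07, Col18a1 at 0.15 ± 0.06, Col15a1 at 0.38 ± 0.16, Col11a1 at 0.17 ± 0.07 and Col7a1 at 0.16 ± 0.07. Lower were Col14a1 at -0.28 ± 0.12 and Col8a1 at -0.21 ± 0.09.

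The tests of any difference between the 4 times called no member. In control fat 0 of 44 passed against 0.0602% of all genes, and 2 of 44 had an unadjusted p under 0.05 (4.55%, against 5.8% of all genes), Col28a1 (limma adjusted p = 0.503) and Col8a1 (0.791). Next in control fat was Col18a1 (0.894). In knockout fat 0 of 44 passed against 0.0702% of all genes, and 9 of 44 had an unadjusted p under 0.05 (20.5%, against 13.4%), led by Col5a2 (limma adjusted p = 0.153), Col3a1 (0.198) and Col1a1 (0.243). Over both genotypes 0 of 44 passed against 0.883% of all genes, and 8 of 44 had an unadjusted p under 0.05 (18.2%, against 16.1%), with Col28a1 (adjusted p = 0.0969), Col5a2 (0.103) and Col6a3 (0.148) closest.

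The paired chains of collagen IV and of collagen VI varied together between arrays of a group. The deviation of each array from its group mean was correlated over the 24 arrays for 10 pairs of chains, with two-sided p-values from 100000 permutations within groups, adjusted over the 10 pairs. For Col6a1 and Col6a2, Pearson's r was 0.94 (permutation p = 5e-05, adjusted 0.00017) and Spearman's rho 0.90 (permutation p = 3e-05, adjusted 0.00015), and r was 0.89 without the 2 arrays farthest from the median of Col6a1. Of 19937 other genes Col6a2 was the closest to Col6a1. For Col4a1 and Col4a2, r was 0.93 (permutation p = 2e-05, adjusted 0.00017) and rho 0.95 (permutation p = 1e-05, the smallest these permutations can give, adjusted 0.0001), r was 0.93 without the 2 farthest arrays, and Col4a2 ranked 2 of 19937 genes. Without the 4 singled-out arrays the 2 pairs had r of 0.90 and 0.93. Each r with arrays left out, here and below, kept the group means of all arrays. The arrays left out thus still shift the deviations of their group, and such an r does not show the relation free of them.

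**Figure D4:**
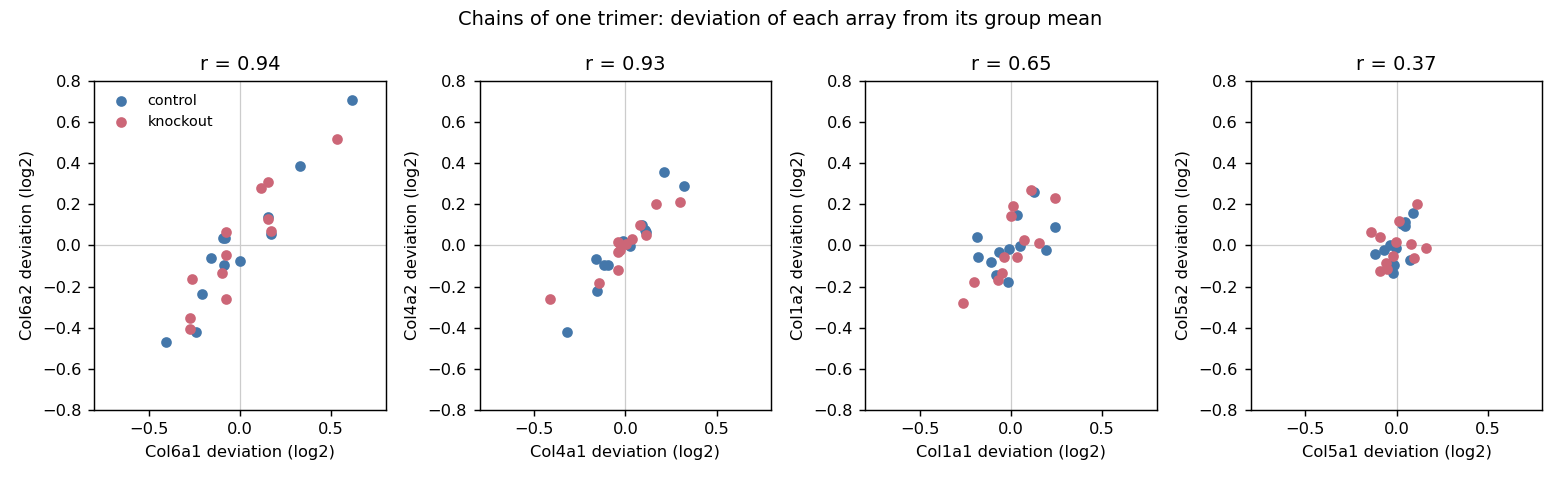
Deviation of each array from its group mean in log2 expression for the first chain (horizontal axis) against its partner (vertical axis), 24 arrays, controls in blue and knockouts in red. Pearson's r falls from 0.94 for Col6a1 and Col6a2 and 0.93 for Col4a1 and Col4a2 to 0.65 for Col1a1 and Col1a2 and 0.37 for Col5a1 and Col5a2. The within-group SD of the chains falls in the same order, and its part in r was not tested.

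The collagen I chains had a lower r. Their within-group SD was also smaller, 0.16 for Col1a1 and 0.18 for Col1a2, and that of Col5a1 and Col5a2 was 0.09 and 0.11. The chains of the 2 pairs above had an SD of 0.21 to 0.36. The part of this spread in r was not tested. For Col1a1 and Col1a2, r was 0.65 (permutation p = 0.0033, adjusted 0.0055), rho 0.69 (permutation p = 0.002, adjusted 0.0033) and r without the 2 farthest arrays 0.58, and Col1a2 ranked 235. For Col1a1 and Col3a1, which share fibres, r was 0.73 (permutation p = 0.0021, adjusted 0.0043), rho 0.77 (permutation p = 0.0015, adjusted 0.003) and r without the 2 farthest arrays 0.62. Col3a1 and Col5a2 had r of 0.74 (permutation p = 5e-05, adjusted 0.00017), rho of 0.79 (permutation p = 7e-05, adjusted 0.00023) and r without the 2 farthest arrays of 0.76. Col5a1 and Col5a2, chains of the same collagen V trimer, had r of 0.37 (permutation p = 0.12, adjusted 0.12) and rho of 0.41 (permutation p = 0.097, adjusted 0.097), so that no relation was shown. Their r was 0.54 without the 2 farthest arrays and 0.20 without the 4 singled-out arrays. Of 19937 genes Col3a1 ranked 48 for Col1a1, Col5a2 ranked 23 for Col3a1, and Col5a2 ranked 3010 for Col5a1.

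The other collagen VI and IV pairs had r from 0.61 to 0.81. Col6a1 and Col6a3 had r of 0.81 (permutation p = 0.0021, adjusted 0.0043), rho of 0.80 (permutation p = 0.0012, adjusted 0.0029) and r of 0.70 without the 2 farthest arrays. For Col6a2 and Col6a3 the values were 0.68 (permutation p = 0.016, adjusted 0.017), 0.66 (permutation p = 0.011, adjusted 0.012) and 0.51. For Col4a5 and Col4a6 they were 0.78 (permutation p = 0.005, adjusted 0.0063), 0.72 (permutation p = 0.0062, adjusted 0.0088) and 0.65, and for Col4a3 and Col4a4 they were 0.61 (permutation p = 0.0046, adjusted 0.0063), 0.66 (permutation p = 0.0076, adjusted 0.0095) and 0.64. Of 19937 genes Col6a3 ranked 40 for Col6a1 and 540 for Col6a2, Col4a6 ranked 149 for Col4a5, and Col4a4 ranked 1132 for Col4a3. Many other genes thus lay closer to Col4a3 than Col4a4 did. These pairs share arrays, and the median r of each first gene with all other genes lay between -0.02 and 0.10.

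Several of these partners are also neighbours in the genome. In the RefSeq table of GRCm38.p6, 8 pairs of members lay next to each other, Col9a1 with Col19a1, Col3a1 with Col5a2, Col4a4 with Col4a3, Col6a2 with Col6a1, Col4a1 with Col4a2, Col6a6 with Col6a5, Col6a5 with Col6a4 and Col4a6 with Col4a5. Col1a1 and Col1a2 lie on different chromosomes, 11 and 6. Col4a1 and Col4a2 are transcribed away from each other. The transcript starts that the RefSeq promoter table gives for them, at chr8:11312805-11312826 (GRCm38.p6), lay 21 bases apart, with that of Col4a1 inside the annotated span of Col4a2, so that the 2 transcripts overlap there. The outer annotated end of Col4a1 lies further on, at 11312889. The 22 bases from one start to the other are shown for both strands.
Col4a1 strand: ttggagacgccgcccgcgcact
Col4a2 strand: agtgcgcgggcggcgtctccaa
The starts given there for Col4a6 and Col4a5 lay 1343 bases apart.

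Windows of 250 bases before a transcript start were taken from the RefSeq promoter table (GRCm38.p6) for 35 of 44 members, 38 windows in all, and Col1a1 had none. The table's start need not be the outermost of the gene: 13 windows lay outside the gene's annotated span, 16 partly inside and 9, that of Col28a1 among them, wholly inside. The E-box CACGTG, the core of sites bound by CLOCK and BMAL1, was found on either strand in 0 of 38 windows, against 6.02% of 32851 windows of all genes. The letters AGGTCA, the core letters of sites bound by the nuclear receptors ROR and REV-ERB, were found in 8 windows, against 14.0% of all windows, and those members were Col4a4, Col6a5, Col7a1, Col9a1, Col11a1, Col20a1, Col23a1 and Col24a1. TATAAA was found in 5 windows against 12.4%, and CCAAT in 13 against 33.8%. No match says only that these letters are not in this window, and a match is not a measured site.

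The windows of Col5a3 and Col6a1, which had the largest positive genotype differences, and of the fibrillar chains Col1a2 and Col3a1 are shown 5' to 3' on the strand of the gene, with any TATAAA or CCAAT in capitals. They lie at chr6:4505368-4505617 (plus strand) for Col1a2, chr1:45311288-45311537 (plus) for Col3a1, chr9:20815068-20815317 (minus) for Col5a3 and chr10:76726045-76726294 (minus) for Col6a1. Of the Col5a3 window 50 bases lie inside the annotated gene, and the other windows end just before the start of their gene.
Col1a2: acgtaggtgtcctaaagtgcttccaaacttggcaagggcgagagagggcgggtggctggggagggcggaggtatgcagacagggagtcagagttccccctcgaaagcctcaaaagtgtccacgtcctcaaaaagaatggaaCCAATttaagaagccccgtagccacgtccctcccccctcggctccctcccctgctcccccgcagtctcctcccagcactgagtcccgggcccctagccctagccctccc
Col3a1: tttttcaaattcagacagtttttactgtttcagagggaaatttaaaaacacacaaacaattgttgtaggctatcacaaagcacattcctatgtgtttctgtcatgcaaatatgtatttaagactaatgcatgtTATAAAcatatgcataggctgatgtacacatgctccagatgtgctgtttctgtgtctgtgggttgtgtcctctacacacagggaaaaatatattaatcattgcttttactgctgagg
Col5a3: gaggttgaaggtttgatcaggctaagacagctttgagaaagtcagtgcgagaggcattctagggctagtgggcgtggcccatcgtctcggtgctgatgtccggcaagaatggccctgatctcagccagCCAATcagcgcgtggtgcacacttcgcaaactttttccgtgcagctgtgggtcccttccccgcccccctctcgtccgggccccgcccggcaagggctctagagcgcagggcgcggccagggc
Col6a1: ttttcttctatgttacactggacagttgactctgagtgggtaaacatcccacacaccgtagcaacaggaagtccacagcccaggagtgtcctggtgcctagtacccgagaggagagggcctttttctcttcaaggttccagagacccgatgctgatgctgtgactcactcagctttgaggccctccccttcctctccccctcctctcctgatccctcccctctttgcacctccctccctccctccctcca
The windows of Col1a2 and Col5a3 each held CCAAT and that of Col3a1 held TATAAA, whereas that of Col6a1 held none of the 4 motifs. The windows were 62.0% G and C for Col1a2, 62.8% for Col5a3, 56% for Col6a1 and 35.2% for Col3a1.

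The spread between replicates was not the same across the family. The median within-group SD was 0.127 for fibrillar, 0.158 for basement membrane and 0.155 for other chains, against 0.130 over all genes. Among the widest were Col6a2 (0.356), Col15a1 (0.309) and Col6a1 (0.303). Col6a4, the widest of the 44 (0.605) and named after its values were seen, lay between 5.60 and 6.14 on 22 arrays but at 7.08 in control replicate 2 and 8.4 in knockout replicate 2 at CT0. These 2 arrays had the highest mean level of smooth muscle and pericyte markers, 9.24 and 9.23, and the knockout array also had the highest mean of mammary and skin epithelium markers, 7.29 against at most 6.63 on any other array, and the lowest adipocyte mean, 9.99. The difference of Col6a4 between CT12 and CT0 was -0.54 ± 0.31 (SE; limma adjusted p = 0.577). The part of these cells in the Col6a4 values was not tested.

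No gene of the lists for folding, export, cross-linking, breakdown and binding of collagen passed for genotype. Of the 8 lists of such genes 0 members passed for the mean genotype difference, and the medians lay between -0.03 and 0.04. Closest was Timp3, an inhibitor of matrix metalloproteinases, at -0.34 ± 0.07 (SE; adjusted p = 0.135). The collagen-degrading Mmp3 was at 0.20 ± 0.09 (adjusted p = 0.770) and Nid2, a basement membrane linker, at -0.14 ± 0.06 (adjusted p = 0.768).

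Between CT6 and CT18, 2 genes of this machinery passed. From CT6 to CT18 Loxl1, a lysyl oxidase that cross-links collagen and elastin, fell by 0.32 (SE 0.07, limma adjusted p = 0.041). Mmp14, the membrane-bound collagenase, fell by 0.57 (SE 0.12, limma adjusted p = 0.036). They were 1 of 4 and 1 of 12 measured members of their lists, against 0.702% of all genes called. No gene of the other lists passed, so these shares are those of the 2 lists that held a call. Neither passed without the 4 arrays (Loxl1 -0.26, adjusted p = 0.214; Mmp14 -0.46, adjusted p = 0.16). With 1 array left out in turn Loxl1 passed in 11 of 24 fits and Mmp14 in 15, with adjusted p up to 0.114 and 0.0942. Loxl1 was also lost with the replicate block (adjusted p = 0.0504) and with array weights (adjusted p = 0.051). Lox was at -0.46 ± 0.14 (adjusted p = 0.118) and Mmp2 at -0.44 ± 0.14 (adjusted p = 0.126). Of all genes 37.4% were negative in this contrast. Of the fibril partners 9 of 10 were negative and 0 passed, with decorin (Dcn) at -0.21 ± 0.07 (adjusted p = 0.126), and of the TGF beta signalling genes 12 of 13 were negative and 0 passed, with Tgfb3 at -0.29 ± 0.08 (adjusted p = 0.0805). Among collagen receptors 5 of 7 were negative and 0 passed, with Ddr2 at -0.33 ± 0.09 (adjusted p = 0.0999). The collagen chaperone gene Serpinh1 was at 0.30 ± 0.09 (adjusted p = 0.128), in a list with 9 of 17 positive and 0 called, and procollagen secretion and trimming had 5 of 10 positive and 0 called.

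Markers of fibroblasts and of mesothelium were lower too in median. Fibroblast and progenitor markers had a median of -0.28 with 4 of 7 negative, against 37.4% of all genes, and 0 called. Of them 3 were lower at an unadjusted p under 0.05, against 6.07% of all genes. Their summed level was 11.61 to 11.82 in knockout and 11.62 to 11.69 in control fat at CT6, and 11.06 to 11.67 and 11.30 to 11.75 at CT18. Mesothelium markers were negative in 4 of 4 genes with a median of -0.33, 2 of them at an unadjusted p under 0.05 (against 6.07% of all genes), and 0 called. All 4 lay above the median gene level, from 7.08 for Lrrn4 to 8.86 for Wt1, and their source in a subcutaneous depot was not tested. The summed level of the mesothelium markers was 10.16 to 10.70 and 10.18 to 10.42 at CT6, and 9.73 to 10.26 and 9.88 to 10.20 at CT18. The part of these cells in the values of Loxl1, Mmp14 and the fibril partners was not tested.

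For CT12 minus CT0, 0 members of the 8 lists passed. Smad7, an inhibitor of TGF beta signals, was at -0.31 ± 0.07 (SE; adjusted p = 0.0576), Timp3 at 0.41 ± 0.10 (adjusted p = 0.0875) and Mmp14 at -0.43 ± 0.12 (adjusted p = 0.131). The list of folding and modification had 10 of 17 members positive with a median of 0.02, and that of fibril partners 7 of 10 with a median of 0.07, beside the median of -0.13 of the fibrillar chains themselves. For time over both genotypes (limma F test) 1 of 12 members of the breakdown and uptake list passed, against 0.883% of all genes. No gene of the other lists passed in that test, so this share is that of the list that held a call.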

How the data were processed

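The authors deposited log2 expression values, for which the submitters' processing notes name RMA, a method that corrects background, normalizes by quantiles and summarizes probes. Its version is not given. Of 35556 probe sets, 21789 had 1 symbol in the platform annotation, 1621 had several and 12146 were unnamed. The brightest probe set per gene was kept, with no filter on dim genes. Group means were fitted with limma 3.58.1 (lmFit and eBayes, 16 residual and 5.03 prior degrees of freedom) under R 4.3.3. P-values were adjusted over 19938 genes by Benjamini-Hochberg, with a threshold of 0.05. Errors of differences are the standard errors of the fit. The labels call replicates biological. The fits were tested on simulated data. Permutations used Python 3.11.15.

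The collagen genes, the pathway and marker lists, the 4 arrays left out and the tests were chosen with earlier results of these data known. Named are the brightest member per class, those with the largest differences and smallest p, all called members and trimer partners. A list summed level is the log2 of the sum over its genes. Of the listed pathway and marker genes 11 had no probe set with 1 symbol. Alternatives tried were quantile normalization, a filter on dim genes, the mean of all probe sets, a trended robust prior, array weights, a replicate block, the arrays of a single time, and leaving out arrays.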

Additional observations from a re-analysis of the deposited data

How the results depend on the processing

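Collagen calls were few, so 1 gene moves a count. Of 44 members, the number called for the mean genotype difference rose from 0 to 3 without the 4 arrays, which were chosen by genes that differ by genotype. For CT12 minus CT0 it was 0 as reported, 1 after quantile normalization (against 0.582% of all genes), 1 with dim genes left out (0.849%), 6 with array weights (2.21%) and 0 to 2 with 1 array left out in turn. For CT18 minus CT6 it was 1 as reported, 0 without the 4 arrays and 0 to 1 with 1 array left out. For time over both genotypes it was 0, and 2 with array weights (Col5a2 and Col6a3; 4.55%, against 2.98% of all genes). The fibrillar median at CT18 was 0.04, and 0.15 without the 4 arrays. The causes were not tested. No detection call per probe set was used here, so the level at which a dim member meets background is not known.

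The labels give no meaning to shared replicate numbers. Of 12 same-numbered pairs of a knockout and a control array 5 had deviations correlated above 0.1, with r between -0.37 and 0.37, so the numbers were not taken to pair the samples. At CT0 all 3 such pairs were above 0.1 (0.19, 0.37 and 0.33), and at CT12 none was. For genotype the replicate block was the same-numbered pair of each time, and for time contrasts it was the replicate number shared by all times. With these blocks 0 members were called for genotype, on average and at each time, and 1 for CT18 minus CT6, as without them. Loxl1 no longer passed for CT18 minus CT6 (limma adjusted p = 0.0504).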
